A study of Rattus norvegicus with 2 samples.

Results

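The genes described here encode the machinery that stores, releases, moves and reads calcium in the cell: release channels of the endoplasmic reticulum and of acidic stores, calcium pumps, store-operated and other plasma membrane channels, mitochondrial uptake proteins, phospholipase C with its G proteins, calmodulin, and calcineurin with the transcription factors it activates. They were chosen by name as 53 genes, and 47 of them were named among the 15564 genes that could be named on the arrays. Each of the 47 was read by 1 target. No target carried the name of Ryr2, Ryr3, Tpcn2, Orai2, Trpm4 or Nfatc1 in the tables used here, and these genes are not analysed here. Of the 47 targets, 40 come from curated and 7 from predicted RefSeq records. The predicted ones are those of Ryr1, Stim1, Stim2, Trpm5, Trpm7, Mcu and Nfatc3, so their assignment to these genes is less certain.

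AR42J cells come from an exocrine pancreatic tumour of the rat. The treatment was the bile acid taurolithocholic acid 3-sulfate (TLC-S), which serves as a laboratory model of biliary injury to acinar cells. One-colour arrays were hybridised with Cy3-labelled total RNA, 1 array for untreated AR42J cells (control) and 1 for AR42J cells given TLC-S at 200 µM over 20 min. Both were grown in Ham's F12K medium with fetal bovine serum, penicillin and streptomycin. With 1 array in each group there was no replicate check, no test between groups was run, and each ratio compares these 2 arrays.

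In a pancreatic acinar cell, a secretagogue receptor acts through Gq proteins on phospholipase C, which makes inositol trisphosphate. This messenger opens receptors of the endoplasmic reticulum, the stored calcium enters the cytosol, and pumps return it to the store or push it out of the cell. An emptied store is sensed by STIM proteins, which open ORAI channels in the plasma membrane, while mitochondria near the release sites take up part of the calcium. Calmodulin binds the released calcium and switches on calcineurin, a phosphatase that lets NFAT transcription factors enter the nucleus. Bile acids, TLC-S among them, are known to release calcium from the stores of acinar cells, and a sustained rise in cytosolic calcium is known from rodent acinar cells to lead to premature activation of trypsinogen.

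Of the 47 measured genes, 33 had an intensity of 100 or more on both arrays, 4 on 1 array and 10 on neither. The authors' own list of targets starts at an intensity of 100 on both arrays. Random-sequence probes gave 44.7 in control against 40.5 in TLC-S, and the 10 genes ranged from 25.6 to 92.3 over both arrays. A gene is counted here as higher or lower in TLC-S when the ratio of the arrays reached 2-fold after any intensity under 100 was set to 100. A gene with 1 array under 100 thus has only a bound, written as at least N-fold.

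Itpr3, Vdac1 and Atp2a3 were at least 2-fold higher in TLC-S, and Trpm5 was at least 2-fold lower. Rescaling by loess subtracts a smooth curve of the ratio against signal, and quantile normalization gives both arrays the same distribution. Atp2a3 did not reach 2-fold after loess (log2 ratio 0.85) or quantile normalization (0.90), nor did Trpm5 with 50 added to each intensity (-0.79). The 3 higher genes are 6.38% of the 47, against 7.13% of all named genes, and the single lower gene is 2.13%, against 3.21%. Where each array reached 100, 9.09% of the 33 calcium genes passed 2-fold upwards and 3.03% downwards, against 10.0% and 4.38% of named genes. With a signal of 100 on at least 1 array the background was 10.0% and 4.50%, and no calcium share was computed there. In the 2 like-for-like comparisons the shares were near the background, so the calcium genes were not set apart by the number past 2-fold. The split of calls moved with the scaling: over all named genes, 3.44% were higher and 4.80% lower after loess, and 3.91% and 4.48% after quantile normalization. Of the 33 genes that reached 100 on each array, 28 had a ratio above 1 and 5 below, whereas 66.3% of the 10164 named genes at that level had a ratio above 1. Their median log2 ratio of TLC-S over control was 0.50, against 0.25 over those 10164 genes. Over all 47 genes it was 0.36, against 0.15 over all 15564.

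**Figure D1:**
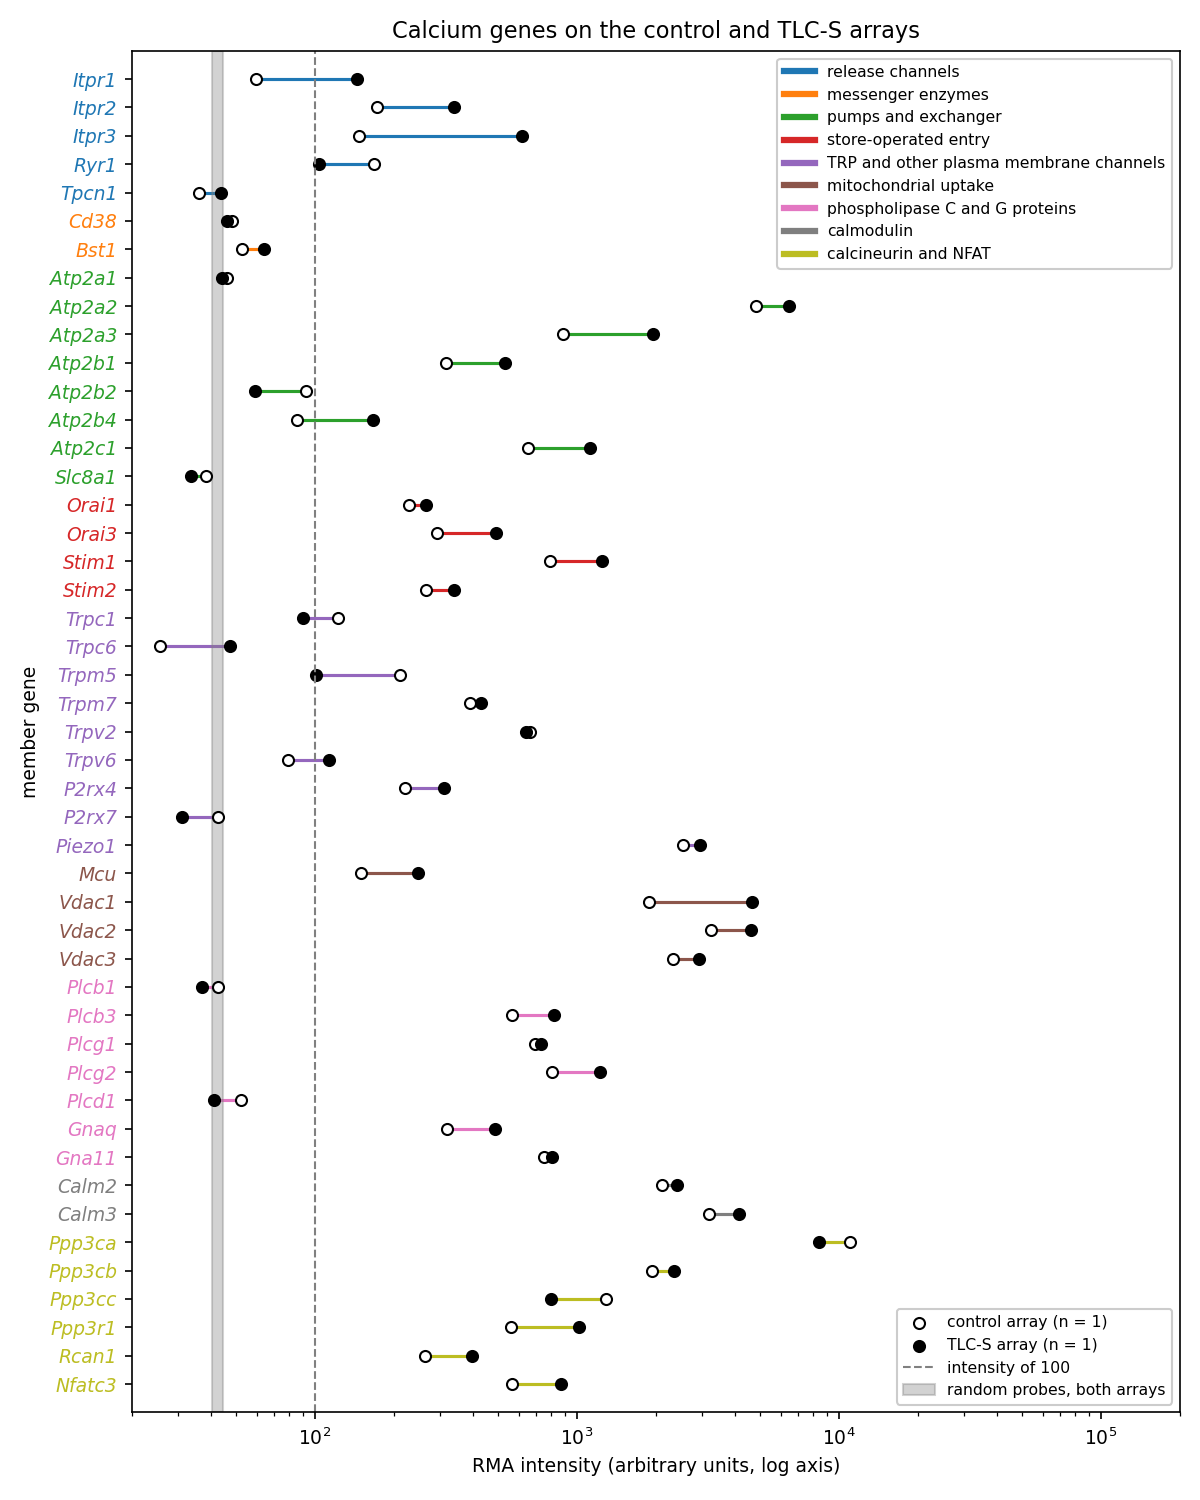
RMA intensity (log axis) of the 47 measured calcium genes on the control array (open circles) and the TLC-S array (filled circles), with names and lines coloured by role, the intensity of random probes as a grey band and the intensity of 100 as a dashed line. Itpr3, Vdac1 and Atp2a3 have long lines that run to the right, Trpm5 has a line that runs to the left, and 10 genes lie left of 100 on both arrays.

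The 4 genes past 2-fold are the ones on which the counts turn, and the 250 bases before their RefSeq start sites are shown for that reason. The sequences are from RefSeq, build GRCr8, on the coding strand and in lower case. Capitals mark matches on either strand to the Sp1 box GGGCGG, the CCAAT box CCAAT, the E-box CACGTG, the TATA box TATAAA, the core of NFAT sites GGAAA, the AP-1 site TGANTCA or the cAMP response element TGACGTCA.
Itpr3, chr20:5138562-5138811, plus strand: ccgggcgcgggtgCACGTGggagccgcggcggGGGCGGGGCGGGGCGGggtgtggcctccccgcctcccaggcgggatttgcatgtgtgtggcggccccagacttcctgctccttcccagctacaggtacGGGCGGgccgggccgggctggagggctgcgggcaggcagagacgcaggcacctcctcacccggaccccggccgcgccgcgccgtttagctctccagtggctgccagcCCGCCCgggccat
Vdac1, chr10:37032959-37033208, plus strand: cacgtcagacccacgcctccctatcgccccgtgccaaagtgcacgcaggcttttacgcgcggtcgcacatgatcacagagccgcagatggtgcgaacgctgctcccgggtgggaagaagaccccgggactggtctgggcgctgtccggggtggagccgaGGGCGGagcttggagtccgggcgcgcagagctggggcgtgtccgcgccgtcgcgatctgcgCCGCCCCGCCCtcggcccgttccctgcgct
Atp2a3, chr10:58080402-58080651, plus strand: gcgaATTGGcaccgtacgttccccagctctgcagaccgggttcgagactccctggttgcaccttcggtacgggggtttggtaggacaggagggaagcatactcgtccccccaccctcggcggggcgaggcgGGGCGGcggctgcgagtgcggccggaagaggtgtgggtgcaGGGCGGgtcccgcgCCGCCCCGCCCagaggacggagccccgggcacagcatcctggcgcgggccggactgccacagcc
Trpm5, chr1:207707089-207707338, minus strand: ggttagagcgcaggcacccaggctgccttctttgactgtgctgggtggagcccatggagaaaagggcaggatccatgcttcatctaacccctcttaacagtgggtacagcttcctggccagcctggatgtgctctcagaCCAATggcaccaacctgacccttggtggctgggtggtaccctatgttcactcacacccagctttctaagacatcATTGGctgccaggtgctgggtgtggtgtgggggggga

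The Itpr3 window held 5 Sp1 boxes, that of Atp2a3 4 and that of Vdac1 3, some of them sharing a base with the next, and the Trpm5 window held 0. The Itpr3 window also held 1 E-box, and those of Atp2a3 and Trpm5 held 1 and 2 CCAAT boxes. The NFAT core, the AP-1 site, the cAMP response element and the TATA box had 0 matches in the 4 windows, which says only that these letters are not in them. The windows of the 3 higher genes had 28 (Itpr3), 27 (Atp2a3) and 33 (Vdac1) CG dinucleotides, and that of Trpm5 had 1.

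Over all 27457 promoter windows of the same length, 32.4% held an Sp1 box and 56.7% an NFAT core. Of the 39 measured calcium genes with a window, 25 held an Sp1 box and 21 an NFAT core. Promoters of genes at 100 or more on both arrays held an Sp1 box more often in general (59.6% of 7042). Of the 26 calcium genes at that level with a window, 22 held one (84.6%). For the NFAT core the order was the opposite, 11 of the 26 (42.3%) against 54.2% of the 7042. The median number of CG dinucleotides was 27.5 in those 26 windows and 9 in the windows of the 13 calcium genes under 100 on an array or both, against 17 for the 7042 genes. Each of these shares is a description of letters in a window and no measure of binding.

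The release channels held the largest ratio. Itpr1, Itpr2 and Itpr3 encode the 3 inositol trisphosphate receptors, of which Itpr2 and Itpr3 are known as the main types at the secretory pole of acinar cells. The intensity of Itpr3 was 147 in control against 618 in TLC-S, 4.20-fold higher, and only 0.561% of the 10164 genes had a ratio as high. Itpr2 was at 173 in control against 338 in TLC-S (1.95-fold higher), just under the 2-fold limit. Itpr1 was at 59.5 in control against 145 in TLC-S, which leaves a bound of at least 1.45-fold higher.

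All 3 inositol trisphosphate receptors thus had a higher value on the TLC-S array. Ratios were widely spread at these signals. Among genes with a mean intensity of 253 to 419, the signal range that holds Itpr3, the SD of the log2 ratio was 0.82 and 14.1% were counted as higher. In the range of Itpr2, 156 to 253, the values were 0.86 and 17.3%. In that of Itpr1, 86.9 to 156, they were 0.80 and 5.27%. Itpr3 stood 1.10 above Itpr2 on the log2 ratio scale. As a gauge of that gap, 521 genes read by 2 targets at 100 or more had a median difference of 0.30 between their own targets, and 4.80% of them differed by as much as these receptors. This gauge pools all signal levels and reads disagreement between targets on the same 2 arrays, not the spread between arrays or cultures. It also reads targets of the same gene, not different genes, whose ratios spread more widely (SD 0.70 over the 10164 genes). A gap that few of the 521 genes reached is therefore not marked as unusual between 2 different genes. The gauge was set beside 14 gaps within gene families, of which 2 passed its 95th percentile.

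The other release channels were near or under the limit of 100. Ryr1, a ryanodine receptor known from skeletal muscle and read by a predicted record that the authors' file calls Ryr1l, was at 168 in control against 103 in TLC-S, 1.62-fold lower. Tpcn1, a two-pore channel of endosomes and lysosomes, was at 36.2 and 43.8, on a level with random probes. The enzymes that make the messengers for ryanodine receptors and two-pore channels were also near background, with Cd38 at 48.4 in control against 46.3 in TLC-S and the related Bst1 at 52.6 and 64.1. In mouse acinar cells Cd38 is known to take part in bile acid-evoked calcium signals.

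The pumps held 1 gene past 2-fold, Atp2a3. SERCA pumps move calcium into the endoplasmic reticulum, and Atp2a2 encodes the form found in most cells, while Atp2a3 encodes a form known from blood cells, endothelium and exocrine glands. Atp2a3 was at 884 in control against 1953 in TLC-S, 2.21-fold higher. Atp2a2 was at 4843 in control against 6480 in TLC-S, 1.34-fold higher. The gap of 0.72 between their log2 ratios was reached by 14.2% of the genes with 2 targets. Atp2a1, the form of fast skeletal muscle, was at 46.1 and 44.1, beside random probes.

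Among the plasma membrane pumps, which push calcium out of the cell, Atp2b1 was at 318 in control against 530 in TLC-S (1.67-fold higher). Atp2b4 was at 85.7 in control against 167 in TLC-S, at least 1.67-fold higher. Atp2b2, known from neurons and hair cells, was at 92.3 and 59.3, under 100 on both arrays. Atp2c1, the calcium and manganese pump of the Golgi, was at 650 in control against 1126 in TLC-S (1.73-fold higher). The sodium-calcium exchanger Slc8a1 was at 38.4 and 33.8, no brighter than random probes. All 4 pumps at 100 or more on both arrays therefore had a ratio above 1, with a median log2 ratio of 0.76. The 4 pumps kept it above 1 under each scaling tried. Over the 10164 named genes at that level, 66.3% had a ratio above 1 as deposited, with a median of 0.25. That share was 49.9% after loess and 53.1% after quantile normalization.

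Store-operated entry was read through 4 genes, all at 100 or more on both arrays. Stim1 and Stim2 encode the calcium sensors of the endoplasmic reticulum. Stim1 was at 790 in control against 1242 in TLC-S (1.57-fold higher), and Stim2 at 265 and 340 (1.28-fold higher). Orai1 and Orai3 encode the channel that these sensors open. Orai3 was at 292 in control against 491 in TLC-S (1.68-fold higher), and Orai1 at 229 and 266 (1.17-fold higher). None of the 4 reached 2-fold. Their median log2 ratio was 0.51, against 0.25 over the 10164 genes. After loess or quantile normalization 3 of the 4 stayed above 1 and Orai1 did not. Of the 10164 genes, 49.9% and 53.1% were above 1 under these scalings. The log2 ratios of Orai3 and Orai1 differed by 0.53, less than the 1.09 that marks the 95th percentile over the genes with 2 targets.

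The other plasma membrane channels had the lowest median of the roles, a log2 ratio of 0.14 over the 5 at 100 or more on both arrays, which became -0.18 after loess and -0.14 after quantile normalization. Trpm5, a sodium channel opened by calcium and known from taste cells and tuft cells, was at 211 in control against 101 in TLC-S, 2.08-fold lower, and 4.04% of the 10164 genes had a ratio as low. Its TLC-S value lay just above 100, so this gene passed the limit on both arrays by a narrow margin. Trpm7, a channel with a kinase domain that also carries magnesium, was at 392 and 432 (1.10-fold higher), 1.20 above Trpm5 on the log2 ratio scale as deposited, a gap reached by 4.22% of the genes with 2 targets. The heat-sensitive channel Trpv2 was at 665 and 639, and the pressure-gated channel Piezo1, which has been linked to pancreatitis in mice, at 2546 and 2961. P2rx4, an ATP-gated channel, was at 220 in control against 311 in TLC-S (1.41-fold higher).

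The other 4 channels of this role gave little signal. Trpc1 was at 123 in control against 90.4 in TLC-S, at least 1.23-fold lower, and the epithelial calcium channel Trpv6 was at 78.7 and 113, at least 1.13-fold higher. Trpc6 (25.6 and 47.3) and the ATP-gated P2rx7 (42.8 and 31.1) were near or under the random probes on both arrays.

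Of the 4 mitochondrial uptake genes, 1 passed 2-fold. All 4 had a ratio above 1, against 66.3% of the 10164 genes, with a median log2 ratio of 0.61. The VDAC proteins form the pores of the outer mitochondrial membrane. Vdac1 was at 1886 in control against 4674 in TLC-S, 2.48-fold higher, a ratio reached by 4.09% of the 10164 genes. Vdac2 was at 3242 and 4613 (1.42-fold higher), and Vdac3 at 2338 and 2933 (1.25-fold higher). Mcu, the pore of the inner membrane uniporter, was at 150 in control against 248 in TLC-S (1.65-fold higher).

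Vdac1 and Atp2a3 lay where ratios were less spread than around Itpr3. In their signal range, a mean intensity of 1302 to 3180, the SD of the log2 ratio was 0.65 and 7.33% of genes were counted as higher. Vdac1 stood 0.80 above Vdac2 and 0.98 above Vdac3 on the log2 ratio scale. Gaps of these sizes were reached by 11.1% and 7.29% of the genes with 2 targets.

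**Figure D2:**
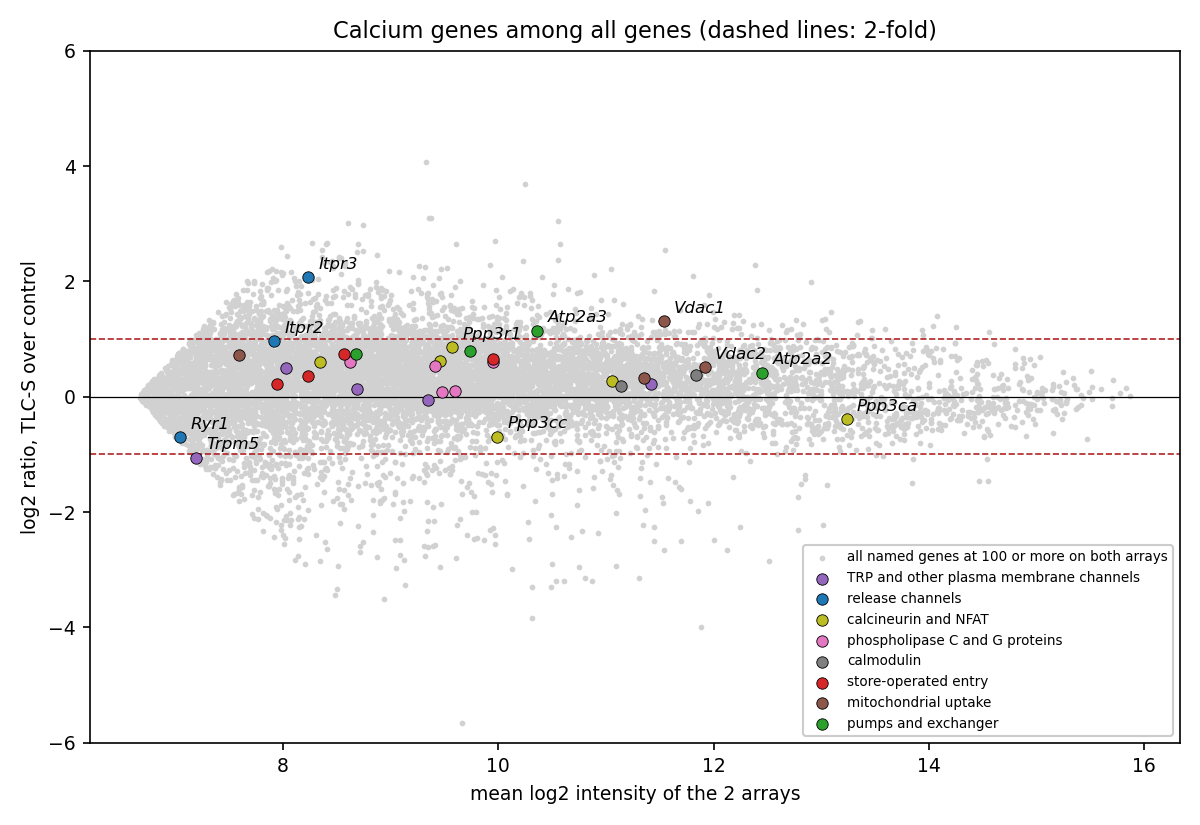
Log2 ratio of TLC-S over control against the mean log2 intensity of the 2 arrays for the 10164 named genes at 100 or more on both arrays (grey) and the 33 calcium genes among them (coloured by role), with 2-fold as dashed lines. Itpr3 lies in the upper edge of a wide band of dim genes, Vdac1 and Atp2a3 lie above 2-fold in a narrower band of brighter genes, and Ryr1 and Trpm5 sit at the dim end, where the limit of 100 narrows the ratios that can be seen.

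The phospholipase C genes and G proteins at 100 or more on both arrays all had a ratio above 1 as deposited (5 of 5). After loess or quantile normalization 3 of 5 did, when Plcg1 and Gna11 passed below 1. Over the 10164 genes the shares above 1 were 66.3% as deposited, 49.9% after loess and 53.1% after quantile normalization. Plcb3, a phospholipase C activated by Gq proteins, was at 567 in control against 820 in TLC-S (1.44-fold higher). Plcg2, a form that acts downstream of immune receptors, was at 803 and 1221 (1.52-fold higher), and Gnaq, the alpha subunit of Gq, at 320 and 487 (1.52-fold higher). In contrast, Plcg1, which acts downstream of growth factor receptors, was at 690 and 732 (1.06-fold), and Gna11, the close relative of Gnaq, at 749 and 800 (1.07-fold). Plcb1 (42.7 and 37.0) and Plcd1 (52.3 and 41.2) were near random probes. The log2 ratios of Plcg2 and Plcg1 differed by 0.52 and those of Gnaq and Gna11 by 0.51, gaps reached by 28.4% and 28.6% of the genes with 2 targets.

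Calm2 and Calm3 are separate genes for the same protein, calmodulin. Calm2 was at 2117 in control against 2406 in TLC-S (1.14-fold higher), and Calm3 at 3202 and 4161 (1.30-fold higher). Calm2 passed below 1 after loess or quantile normalization. The log2 ratios of 0.19 and 0.38 as deposited lay on both sides of the median of the 10164 genes, and their gap of 0.19 was reached by 64.9% of the genes with 2 targets.

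Calcineurin consists of a catalytic subunit, encoded by Ppp3ca, Ppp3cb or Ppp3cc, and a regulatory calcium-binding subunit, encoded by Ppp3r1 in most tissues. As deposited, the catalytic subunits did not share a direction. Ppp3ca was at 11042 in control against 8419 in TLC-S, 1.31-fold lower, and Ppp3cc was at 1290 and 798, 1.62-fold lower. Ppp3cb was at 1943 and 2341, 1.20-fold higher. The regulatory subunit Ppp3r1 was at 563 in control against 1023 in TLC-S, 1.82-fold higher, the highest ratio of this role. None of these subunits reached 2-fold. The gap of 0.96 between the log2 ratios of Ppp3cb and Ppp3cc was reached by 7.87% of the genes with 2 targets, and that of 0.66 between Ppp3cb and Ppp3ca by 16.9%.

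Downstream of calcineurin, Rcan1 encodes a calcineurin regulator that is itself known as a target of NFAT, and it was at 263 in control against 399 in TLC-S (1.52-fold higher). Nfatc3, an NFAT factor, was at 567 in control against 871 in TLC-S (1.53-fold higher). Ratios of at least 1.53 were held by 26.1% of the 10164 genes. Both values thus lay inside the ordinary range of these arrays.

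**Figure D3:**
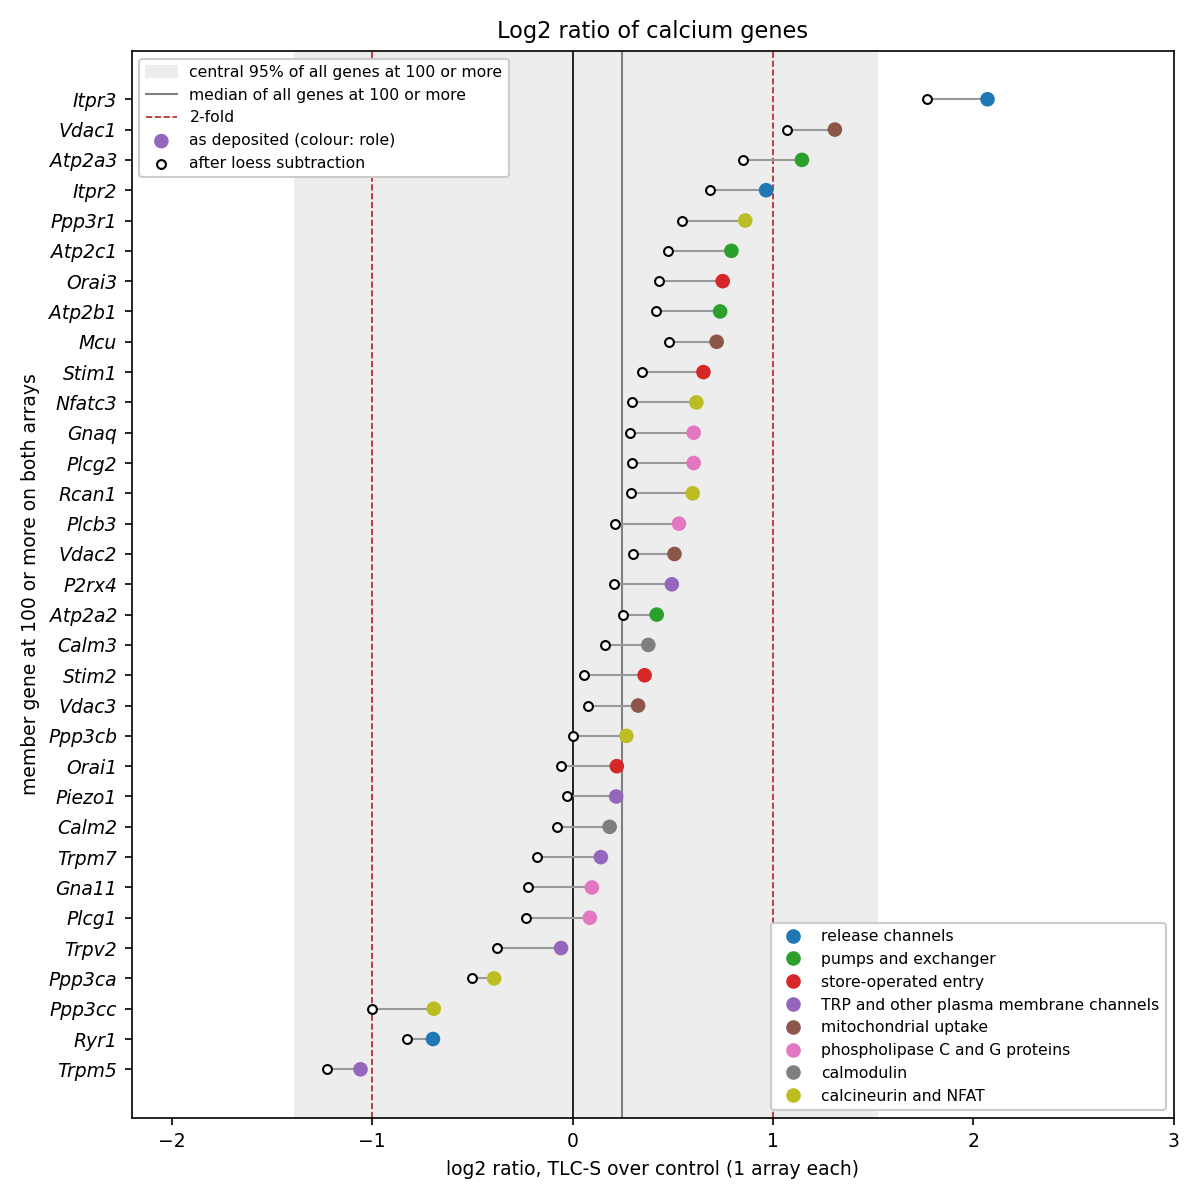
Log2 ratio of TLC-S over control for the 33 calcium genes at 100 or more on both arrays, as deposited (filled, coloured by role) and after a loess curve of ratio on signal was subtracted (open), with the central 95% of the 10164 named genes shaded and their median as a grey line. Itpr3 is the only one of the 33 outside the shaded range, and Atp2a3 crosses below the dashed 2-fold line after loess.

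How far the group leaned towards higher values depended on the scaling. A loess curve, fitted to the log2 ratios against signal and subtracted from each gene, lowered the log2 ratios of the 33 calcium genes by 0.11 to 0.32 and brought the share of the 10164 genes with a ratio above 1 to 49.9%. After it, 22 of the 33 calcium genes (66.7%) had a ratio above 1 and their median was 0.21. Calm2, Gna11, Orai1, Piezo1, Plcg1 and Trpm7 passed from above 1 to below it, and the same 6 genes did so after quantile normalization. Itpr3 (log2 ratio 1.77) and Vdac1 (1.07) stayed past 2-fold after loess and Atp2a3 (0.85) did not, while Trpm5 gave -1.23.

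The difference between the shares above 1, 66.7% in the calcium genes and 49.9% in all genes after loess, stands close to that before it, 84.8% and 66.3%. It describes 33 genes on 2 arrays, was not tested, and rests on genes that were chosen with earlier results of these data known.

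The pathway was widened to 116 other calcium genes, of which 92 were measured and 42 reached 100 on both arrays. Their median log2 ratio was 0.14 at that level, under the 0.25 of all genes, with 24 above 1 and 18 below, and after loess it was -0.03, with 16 above 1. Past 2-fold, 5 were higher (5.43%, against 7.13% of all named genes) and 2 lower (2.17%, against 3.21%). After loess 1 was higher and 2 were lower, and after quantile normalization 2 and 2.

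The higher ones included Trpm6, a magnesium channel related to Trpm7, at 173 in control against 365 in TLC-S (2.12-fold), and Cacnb1, a beta subunit of voltage-gated channels, at 300.3 and 614 (2.04-fold). Neither reached 2-fold after loess or quantile normalization, with log2 ratios of 0.80 and 0.87 for Trpm6 and of 0.71 and 0.77 for Cacnb1. Plcl1, a phospholipase C relative without enzyme activity, was at 86.7 and 234 (at least 2.34-fold), and Nfatc2ip, a nuclear partner of NFAT, at 77.4 and 202 (at least 2.02-fold). The lower ones were Calml3, a calmodulin relative of epithelia, at 738 in control against 213 in TLC-S (3.47-fold), and Cacna1b, the pore of N-type channels, at 204 and 85.1 (at least 2.04-fold).

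The other mitochondrial calcium genes at 100 or more on both arrays were all above 1 as deposited (8 of 8, median log2 ratio 0.43). After loess 5 of the 8 were above 1, and after quantile normalization 8 of 8 (median 0.20). Over the 10164 genes these shares were 66.3%, 49.9% and 53.1%. The 8 genes include the uniporter subunit Smdt1 (1.31-fold higher) and Letm1, an ion exchanger of the inner membrane (1.58-fold higher). Mcu, Vdac1, Vdac2 and Vdac3 were above 1 before and after loess. The other release and store genes had a median of 0.05 over 12, which became -0.14 after loess, and the calcium-binding chaperone Calr was at 18980 and 18709. The voltage-gated channels were mostly dim, with 7 of 14 measured under 100 on both arrays.

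**Figure D4:**
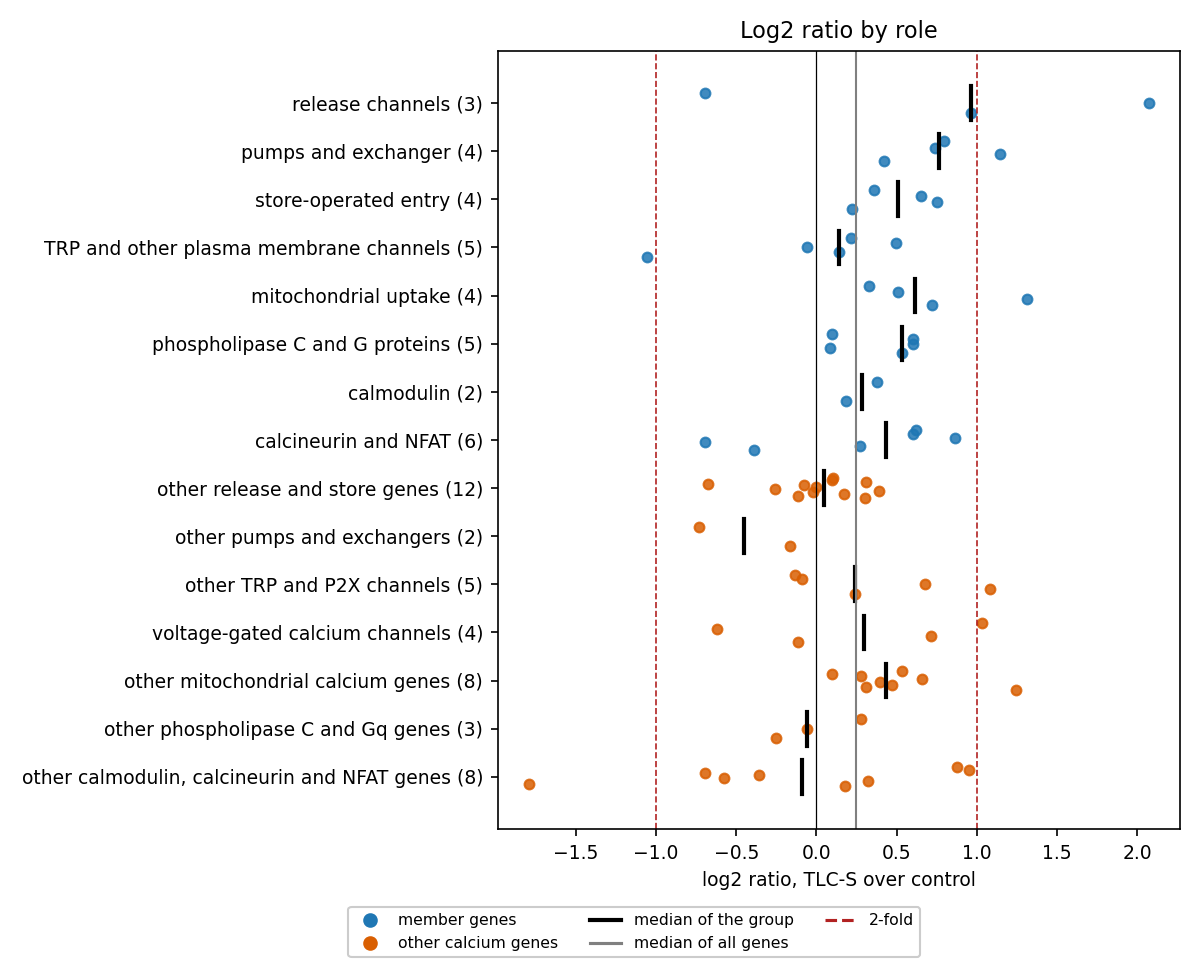
Log2 ratio of TLC-S over control for calcium genes (blue) and other calcium genes (orange) at 100 or more on both arrays, by role with the number of genes in brackets, group medians as black bars, the median of all 10164 genes as a grey line and 2-fold as dashed lines. The pumps, store-operated genes and mitochondrial genes among the blue points lie right of 0 as deposited, and the calcineurin and NFAT genes lie on both sides.

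In the authors' deposited tables of targets past 2-fold, Itpr3 (4.20), Vdac1 (2.48) and Atp2a3 (2.21) stand in the up table and Trpm5 (2.08) in the down table, with folds equal to the ratios computed here. No other calcium gene of the 53 was found in them.

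The labelled cell type was read from its markers, since several calcium genes differ between cell types. Of 19 measured acinar secretory genes other than trypsinogens, 0 reached 100 on both arrays, with summed intensities of 1124 in control against 1103 in TLC-S. Of the 19, 17 were under 100 on both arrays, with medians over the 19 of 49.8 and 52.0, not far above random probes. These sums are thus mostly background and cannot show whether acinar content was equal. The trypsinogens Prss1, Prss2 and Prss3 were bright in control and 7.21-fold to 8.85-fold lower in TLC-S. Among 19 genes shared by leukocytes, 17 had at least 100 in both samples, with summed intensities of 33383 and 33939, and the median log2 ratio of these 17 was 0.03. All 6 measured B lymphocyte genes reached that level too, with sums of 6185 and 6098, and 1 of 8 T lymphocyte genes did. Of 11 epithelial genes 6 did, 2 with a ratio above 1 and 4 below, and their median log2 ratio was -0.29. The sums over the 11 were 7025 in control and 8176 in TLC-S, of which Cdh1 alone made up 5018 and 6755. Cldn4 and Grhl2 were 2.34-fold and 2.29-fold lower. Epcam, Krt8 and Krt19 were under 100 on both arrays. Plcg2 and Atp2a3 are both known from blood cells, but they are picked examples, and the calcium genes were not grouped by cell type. Cells of another type cannot be told from the line itself in 2 bulk arrays, and in bulk RNA fewer cells of a type and less RNA per cell cannot be told apart. The part of either in the ratios above was not tested.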

How the data were processed

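For every target on each array, the deposited value is an RMA intensity on a linear scale, per the file headers; RMA is named without a version in the submitters' processing notes, and its background correction was not given in the sources used here. Separately, the authors' up and down tables hold fold changes, both as a linear ratio and as log2, per the file headers. Here the log2 ratio of TLC-S over control was computed. Of 26419 targets, 16341 were named and 10078 stayed unnamed. Names came by RefSeq accession, gene ID, symbol or synonym through a gene table of assembly GRCr8. The exception was 1549 targets that kept the authors' symbol, which had no match there. Where a gene had several targets, the one of highest mean log2 intensity was used. Intensities under 100 were set to 100 for calls at 2-fold. The number of arrays limits precision, and no p-value was computed.

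The 53 genes, the other calcium genes and the marker lists were chosen with earlier results of these data known. The rule for named genes took every one of the 53 and each other calcium gene past 2-fold, of which 1 is not reported here; Calr, Smdt1 and Letm1 were named after their values were seen. Motifs were chosen after the values were seen. Alternatives were other deposited tables, median centring, loess (span 0.3, 3 iterations), quantile normalization, no floor, the limit of 100 on both arrays, an offset of 50, the mean or dimmest target, and 1.5-fold and 3-fold. The steps were tested on simulated data with changes planted in brighter genes only and ratios less spread than on these arrays. That checks the code and says little about the calls made here. Software was matplotlib 3.10.9, statsmodels 0.14.6, scipy 1.17.1, pandas 2.3.3, numpy 2.4.6 and Python 3.11.15. The number of array columns left unmapped was 0.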

Additional observations from a re-analysis of the deposited data

How the results depend on the processing

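No paired analysis was possible because control and treated cells had 1 array apiece, and no replicate could be left out. Against 3 higher and 1 lower calcium genes, a threshold of 1.5-fold gave 15 higher (31.9%, against 19.4% of all named genes) and 3 lower (6.38%, against 7.20%). A threshold of 3-fold gave 1 higher (Itpr3, 2.13% against 1.56%) and 0 lower (against 1.28%). An offset of 50 gave 0 lower (against 2.46%), as Trpm5 no longer reached 2-fold. Loess and quantile normalization each gave 2 higher, without Atp2a3 (4.26%, against 3.44% and 3.91%), and no floor gave 4, with Itpr1 (8.51%, against 8.67%). Of the calls over all named genes, 69.0% were higher as deposited, 41.7% after loess and 46.6% after quantile normalization. The other deposited tables, median centring and the limit of 100 on both arrays kept 3 and 1; the mean and the dimmest target repeat the main value, since each gene has 1 target. The median log2 ratio ran from 0.21 after loess (0.01 over all named genes) to 0.50 over the 33 genes with the limit of 100 (0.25 over all genes at that level). It was positive under each alternative, but so was the median over all named genes. The 4 settings that alter the intensities (median centring, loess, quantile normalization and the offset) gave 188 values of single genes. Of these, 2 moved by more than the SD of 0.42 between targets of a gene (Itpr1 and Trpc6, with the offset), and 0 of the called genes reversed. Loess and quantile normalization lowered the 33 genes at 100 or more by at most 0.32 and 0.29. Shifts of that size could neither pass 0.42 nor reverse a gene past 2-fold, so this tally cannot show stability. Even so, 6 of the 33 passed below 1 under each. Low signal limits the 10 genes under 100 on both arrays and the 4 with 1 array under 100.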
